A study of Mus musculus with 32 samples.

Results

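Glycolysis is described here through 10 enzyme genes, taken by symbol out of the 55573 genes of the count table: Hk1, Gpi1, Pfkp, Aldoa, Gapdh, Pgk1, Pgam1, Eno1, Eno2 and Pkm. All 10 passed the filter on low counts, a mean of at least 10, and their lowest count in any library was 1078. The symbol Aldoa belongs to 2 gene identifiers in the annotation. The one with 21 to 110 counts per library was left aside, and ENSMUSG00000030695 was used. In mm10, whose gene models give these positions, the members the results turn on are Pfkp (chr13:6579768-6648777, minus strand), Eno2 (chr6:124760053-124769673, minus), Hk1 (chr10:62268855-62379908, minus), Gapdh (chr6:125161715-125166467, minus) and Aldoa (chr7:126795234-126800751, minus).

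The study asked which RNAs of hippocampal neurons are found in neurites rather than in cell bodies, and whether depolarization or loss of the m6A methyltransferase Mettl3 changes this. Neurons of newborn C57BL/6 pups (WT) or Mettl3Flox/Flox pups (Mettl3 KO) were grown to day 15 on porous membranes that neurites cross, so that soma were scraped from the top and neurites from the bottom. Both genotypes received AAV-hSyn-Cre-P2A-dTomato on day 7, and both were silenced with 1 µM TTX and 50 µM D-AP5 for 16 h before they were left untreated (Ctrl) or depolarized for 2 h with 55 mM KCl. There were 16 RNA-seq libraries, 2 in each of 8 groups, while DART-seq, which reads m6A as C-to-U changes next to the methylated base, covered 16 more. Each culture pooled the hippocampi of 1 litter, replicates were different litters, and Ctrl and KCl cultures of a replicate came from the same litter. The hSyn promoter limits Cre to neurons, so glia in a Mettl3 KO culture keep Mettl3. The soma fraction can hold neurites that did not cross the membrane. Genotype cannot be told apart from strain and litter, and p-values measure only the spread between these cultures.

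Glycolysis converts glucose to pyruvate in the cytosol. Hexokinase (Hk1) traps glucose as glucose phosphate, the isomerase (Gpi1) and phosphofructokinase (Pfkp) turn it into fructose bisphosphate, and aldolase (Aldoa) splits that sugar. Gapdh then makes NADH, Pgk1 makes ATP, Pgam1 and the enolases (Eno1 and Eno2) rearrange and dehydrate the product, and pyruvate kinase (Pkm) makes ATP again. Phosphofructokinase is the main control point, Eno2 is the enolase of mature neurons, and Gapdh is often used as a reference gene. In neurons the pathway supplies ATP near synapses, and glucose enters through the transporters Slc2a1 and Slc2a3.

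The libraries held 33789183 to 71394235 counts, of which the 10 enzymes took 0.504 to 1.14%. Differences between groups are in log2 units with ± 1 SE from the edgeR fit, over 2 libraries a group. Compartment markers followed the labels in untreated WT neurons: relative to soma, neurites had more Camk2a (2.06 ± 0.14) and Shank1 (2.05 ± 0.21) and less Snhg11 (-1.31 ± 0.15). KCl raised the activity gene Fos by 7.80 in WT soma and 6.63 in WT neurites on the log2 scale. Mettl3 itself lay at 8.90 to 17.3 CPM (reads per megaread, with library sizes scaled by TMM) in the 8 WT libraries and at 3.88 to 11.6 CPM in the 8 Mettl3 KO libraries. Within each compartment and treatment both Mettl3 KO libraries lay below both WT libraries, although edgeR gave adjusted p of 0.273 to 0.625 for Mettl3 in the 4 comparisons of genotypes. The count of Mettl3 includes exons outside the floxed part. One insert stood apart. For KCl-treated Mettl3 KO insert 1 (soma and neurites), the summed level of 7 oligodendrocyte-lineage markers was 3584 and 7198 CPM, against 37.9 to 106 CPM in WT and 55.3 to 183 CPM in the other Mettl3 KO libraries. Neuron markers (10 genes) summed to 2185 and 1326 CPM there and to 4013 to 6837 CPM in WT, and the medians, the pathway calls and the Eno2 differences that use this insert are given with and without it. No marker on these lists was at 0 in any library.

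All 10 enzyme RNAs were abundant, and their levels spread over a wide range. Per kilobase of the merged exons in the deposited table, the untreated WT soma held most Aldoa (583 ± 23.3 CPM per kb, SD, n = 2), followed by Pgam1 (339 ± 18.03), Eno1 (298 ± 16.1), Pkm (237 ± 3.01), Pgk1 (160.0 ± 9.40), Gapdh (112 ± 2.44), Gpi1 (76.2 ± 4.34), Hk1 (69.7 ± 1.51), Eno2 (35.5 ± 2.75) and Pfkp (18.8 ± 1.99). In this order no pair of neighbours overlapped between the 2 libraries. Merged exons include rare isoforms, so the same counts were also divided by the length of the principal transcript. On that scale Aldoa stayed first, at 1124 CPM per kb, but Eno1 (791) and Pkm (487) moved ahead of Pgam1 (379), and Gapdh (325) ahead of Pgk1 (197). The last places then went to Pfkp (60.8) and Eno2 (59.7), whose libraries overlapped.

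Across the 8 WT libraries the enzymes varied little. The lowest, median and highest WT values were 566, 636 and 674 CPM for Hk1. For Aldoa they were 1572, 1655 and 1949 CPM, and for Pkm 1109, 1188 and 1317 CPM. The highest WT library exceeded the lowest by 1.19 to 1.45 times for 8 of the enzymes, by 1.64 times for Eno2 and by 1.79 times for Pfkp. In the 8 Mettl3 KO libraries the corresponding ratios were 2.02 to 3.23 times for 9 of the enzymes and 16.2 times for Eno2, whose lowest, median and highest Mettl3 KO values were 17.9, 105 and 289 CPM. Without the 2 libraries of the divergent insert, the Mettl3 KO ratios were 1.20 to 2.41 times for 9 of the enzymes and 3.09 times for Eno2, from 93.7 to 289 CPM.

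**Figure D1:**
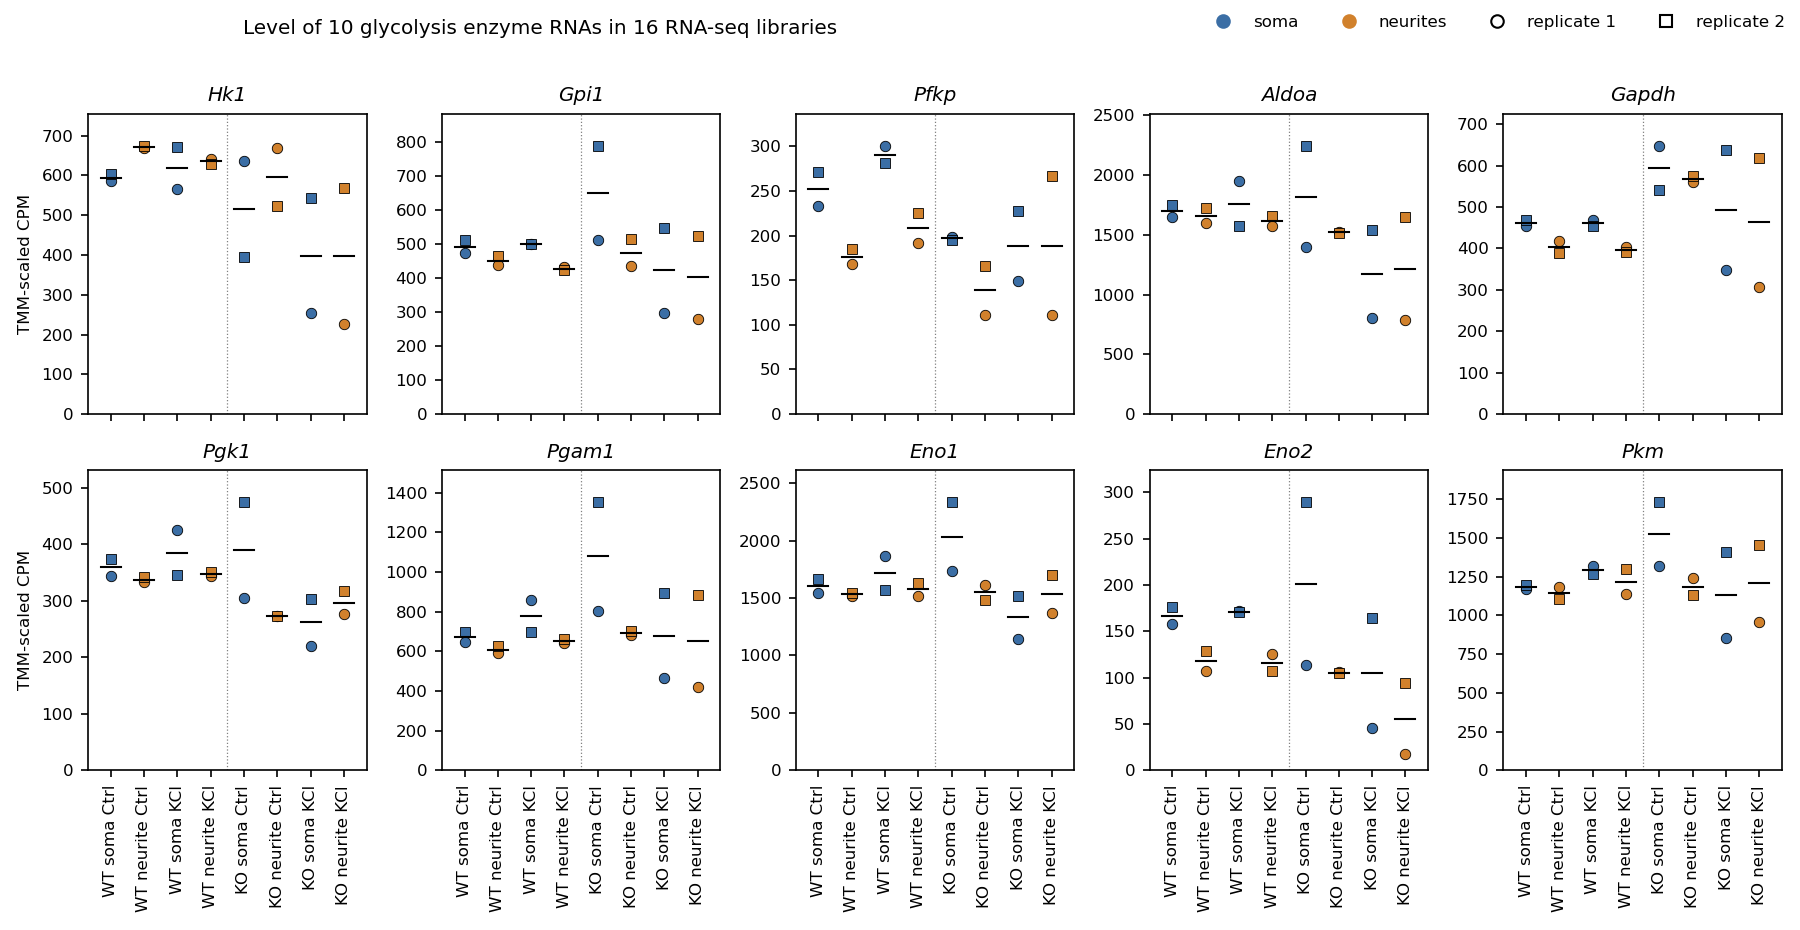
Level of each of the 10 enzyme RNAs (y axis, TMM-scaled CPM, each panel with its own scale from 0) in the 16 RNA-seq libraries by group (x axis). Circles are replicate 1, squares replicate 2, blue is soma, orange is neurites, and the short lines are means of 2 libraries. WT replicates lie close together, Pfkp and Eno2 are lower in neurites than in soma of WT, and replicate 1 of KCl-treated Mettl3 KO is the lower one in both compartments for all 10 enzymes.

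Several steps of the pathway were carried by mostly 1 isoform. Of the summed level per kb of each enzyme family, the median over WT libraries was 90.4% Aldoa and 9.62% Aldoc among aldolases, and 8.98% Eno2, 0.790% Eno3 and 0.224% Eno4 among enolases, next to a majority of Eno1. Phosphofructokinase was the exception: Pfkm made up 50.7%, Pfkl 33.3% and the described member Pfkp 16.0%. All these shares divide by merged exons, which for Pfkp span 13401 bases against 4145 in its principal transcript. Shares with the principal transcript's length were not computed, so Pfkp's place as the smallest share may depend on this choice. Pkm and Pgk1, and likewise Gapdh (99.7%) and Pgam1 (96.1%) had almost no expressed relative. Pkm encodes M1 and M2 forms by exclusive exons, which a count per gene does not separate.

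Several of these genes have near-identical copies elsewhere in the genome, and the authors' counting gave each read that maps to several places to all of them. A search of the annotated transcripts found 210 other genes that match an enzyme over at least 200 bases at 90% identity or more, 180 of them to Gapdh. The copies of Gapdh were counted at 76.3 to 92.8% of Gapdh's own count in a library, summed over copies. For Pgk1 the 4 copies summed to 108 to 122%, with Pgk1-rs7 and Gm5537 matching at 100%, and for Eno1 the 7 copies summed to 95.5 to 102%. Copies of Pgam1 reached 43.3 to 48.4%, of Pkm 14.5 to 18.4%, of Gpi1 at most 14.6% and of Aldoa 1.04 to 2.16%. Hk1, Pfkp and Eno2 had no such copy, which leaves their counts free of this doubt. Pfkp shares 748 bases with Pitrm1 on the opposite strand, and the counting did not use strand. Pitrm1 was counted at 12.6 to 85.9% of Pfkp.

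All 10 enzyme RNAs were among the 5643 RNAs with m6A sites called by DART-seq. Over the 16 RNA-seq libraries, 23335 genes passed the filter on low counts. A site needed at least 50 reads, and the share of equally abundant RNAs with a site was not computed. The enzyme APOBEC1 fused to the m6A-binding YTH domain changes the C that follows a methylated A into U, and the deposited value of a site is the fraction of reads with that change, averaged over libraries. The list gives 29 positions in the 10 RNAs, of which 23 lie in coding exons, 2 in 5′ UTRs and 4 in 3′ UTRs of the principal transcript. The positions of other RNAs were not placed in this way, so these counts have no background to compare with. Pkm has 10 sites, Pfkp 8, Eno2 4 and the others 1 each. The following genomic sequences (GRCm38, strand of the RNA) show the sites with the highest and the lowest fraction, those of the RNAs whose soma and neurite scores differed most, and the main 3′ UTR sites. The 5 capitals are the positions of the m6A motif, with the edited C next to last and the candidate methylated A before it.
Pfkp, chr13:6597969, minus strand, coding exon 16 of 22: ccgggagAAACAtgaggcgtt
Eno2, chr6:124760234, minus strand, 3′ UTR: gaactcaTGACCaagtttgca
Pkm, chr9:59679146, plus strand, 3′ UTR: agtcaggAGACAgcaaaagag
Hk1, chr10:62269915, minus strand, coding exon 22 of 22: accctacGAACGcctaagagc
Aldoa, chr7:126799120, minus strand, 5′ UTR: gttctggTGACCctagccgcg
Pgk1, chrX:106197939, plus strand, coding exon 6 of 11: tccagagCGACCcttcctggc
Gapdh, chr6:125162062, minus strand, coding exon 7 of 7: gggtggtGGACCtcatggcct

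The first 5 sites shown were edited at 9.47% (Pfkp), 6.42% (Eno2), 3.74% (Pkm), 3.33% (Hk1) and 2.59% (Aldoa). Pgk1 and Gapdh followed at 0.939% and 0.436%, and the Gapdh site lay at percentile 0.242 of all 18147 listed positions. Over the 29 positions the median edited fraction was 0.0166, against 0.0354 over all positions. All 29 read A or G, then A, then C at the centre of the capitals, as did all 18147 positions. The authors kept only sites with these 3 bases, so the calling fixed this match. The full motif DRACH (D is any base but C, H any base but G) fit 21 of 29 and 70.9% of all positions. Hk1, Pgk1 and Pgam1 are single-site RNAs whose motif departs from DRACH in its first or last base.

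Each RNA also has a deposited score over its sites. For the 7 enzymes with 1 distinct position it equalled the sum of the listed fractions within 1e-06, while for Pfkp (0.219 against a sum of 0.252), Eno2 (0.0812 against 0.110) and Pkm (0.128 against 0.134) it was lower. The score was low for most enzymes: the median WT score was 0.0301 for the 10 against 0.103 over all 5643 RNAs, and 8 of the 10 lay below that overall median. Pfkp (0.219) and Pkm (0.128) lay above it. Among the others the WT score ran from 0.00436 (Gapdh) to 0.0812 (Eno2). By the site table, 6 of the 10 RNAs had 1 site, against 32.3% of all RNAs. Aldoa is entered with 2 sites because position chr7:126799120 is listed more than once. Counted once, its WT score would be 0.0259 instead of 0.0517. A total of 27 RNAs have such a repeated position. Scores are averages over libraries with no spread, at an unknown depth per site, so no difference between them was tested.

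Neurite scores exceeded soma scores for 9 of the 10 enzymes, as they did for 68.8% of all RNAs. The largest ratio was that of Gapdh (0.000537 in soma and 0.00886 in neurites), followed by Pgk1 (0.00285 and 0.0180) and Aldoa (0.0198 and 0.0936). In these RNAs the soma score was also below the Mettl3 KO score (0.00139, 0.00426 and 0.0209), which held for 2.55% of all RNAs. Each of these RNAs has 1 distinct position. They also have near-identical copies, 180 for Gapdh, 4 for Pgk1 and 6 for Aldoa, whose part in the scores was not tested. Pfkp, with the most edited site, differed little between soma (0.215) and neurites (0.226). The neuronal enolase Eno2 was similar in both as well (0.0776 and 0.0871). Pkm went from 0.112 to 0.151, Eno1 from 0.0107 to 0.0178, Pgam1 from 0.0206 to 0.0338 and Gpi1 from 0.0180 to 0.0299. Hexokinase was the exception, with a soma score of 0.0398 and a neurite score of 0.0253. All 10 had a higher WT than Mettl3 KO score, as did 99.8% of all RNAs. Sites were kept only if they were edited more in WT, so the calling all but fixed this direction.

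**Figure D2:**
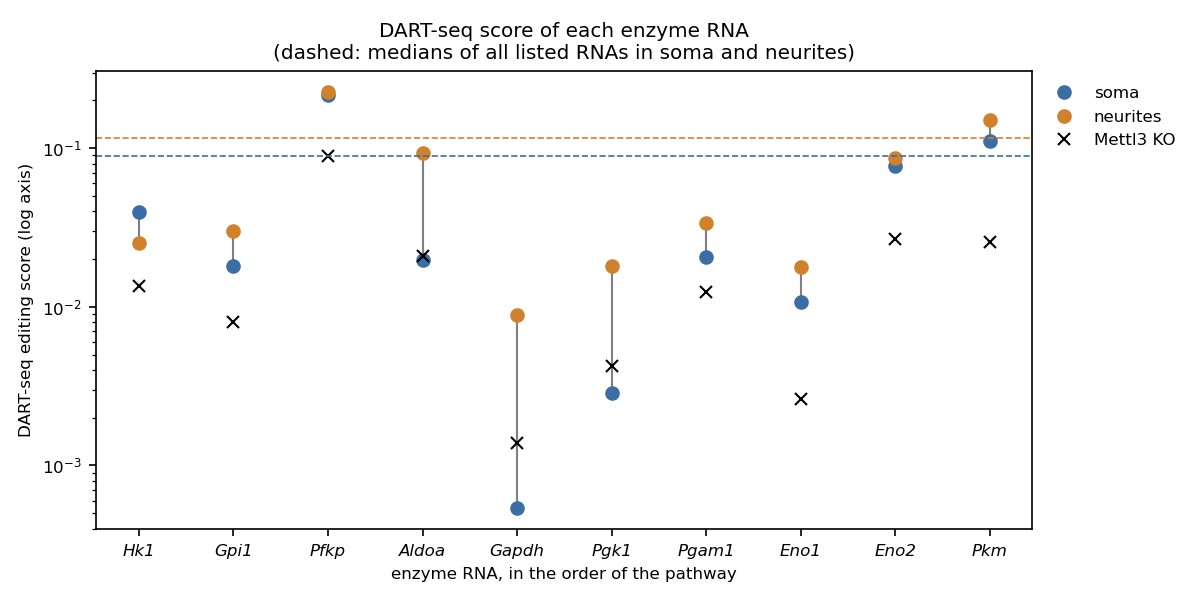
DART-seq score of each enzyme RNA (y axis, log scale; the authors' value over the sites of an RNA) in the order of the pathway, with soma in blue, neurites in orange and Mettl3 KO as crosses. Dashed lines are the medians of all listed RNAs in soma (0.0888) and neurites (0.116). Pfkp and Pkm lie above the line of their compartment in both, and Hk1 is the RNA whose neurite score is the lower one.

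To ask where the enzyme RNAs sit in the cell, neurites were compared with soma in WT neurons. The phosphofructokinase Pfkp and the neuronal enolase Eno2 showed the largest differences, with less RNA in neurites, and the other 8 lay within 0.26 of 0 in log2 units. Pfkp measured 233 and 271 CPM in untreated soma and 168 and 185 CPM in untreated neurites. With KCl it measured 300.2 and 281 CPM in soma and 191 and 225 CPM in neurites. All 4 neurite libraries lay below all 4 soma libraries. For Eno2 the values were 158 and 176 CPM in untreated soma and 108 and 128 CPM in untreated neurites. KCl-treated soma had 172 and 171 CPM of Eno2 and KCl-treated neurites 125 and 107 CPM, again without overlap.

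In log2 units the Ctrl difference was -0.58 ± 0.13 for Pfkp and -0.56 ± 0.14 for Eno2, with edgeR adjusted p of 0.0106 and 0.0181. With KCl it was -0.47 ± 0.12 and -0.54 ± 0.14, with adjusted p of 0.0341 and 0.0278. Both passed the adjusted p in both treatments but fell short of the 1.5-fold minimum, so they were not called. Gene by gene with the requirement of 1.5-fold, edgeR called 0 of the 10 enzymes in WT Ctrl, where it called 13.5% of all genes, and 0 of the 10 in WT KCl, where it called 9.54%. DESeq2 and limma also called 0 of the 10 in each. Without the fold minimum 2 of 10 passed in Ctrl (19.4% of all genes) and the same 2 in KCl (13.3%). At an unadjusted p up to 0.05 there were 3 in Ctrl (34.4% of all genes), Gapdh being the third, and 2 in KCl (28.5%). Pfkp and Eno2 sat at the edge of the fold minimum in Ctrl: without WT neurite Ctrl replicate 2 they came to -0.68 and -0.73 and both were called.

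The remaining enzymes lay closer to 0. Gapdh, which had 455 and 469 CPM in untreated soma and 418 and 388 CPM in neurites, differed by -0.26 ± 0.0964 in Ctrl (edgeR adjusted p = 0.0826). Pgam1 differed by -0.21 in Ctrl and -0.24 in KCl, and Gpi1 by -0.19 and -0.21. Pgk1, Eno1, Pkm and Aldoa ran from -0.15 to -0.10 in Ctrl and from -0.13 to -0.07 in KCl. Hk1 was the only enzyme with a positive value, 0.11 ± 0.11 in Ctrl and 0.05 ± 0.11 in KCl. Hexokinase measured 585 and 604 CPM in untreated soma and 669.5 and 674 CPM in untreated neurites. The median of the 10 enzymes was -0.17 in Ctrl and -0.17 in KCl, against -0.10 and -0.03 over all tested genes. Of all genes, 43.0% were positive in Ctrl and 47.1% in KCl. In single inserts, 5 enzymes (Pfkp, Eno2, Gapdh, Gpi1 and Pgam1) were lower in the neurites of all 4 WT inserts. Eno2 lay between -0.67 and -0.45 and Pfkp between -0.65 and -0.32 in log2 units. The share of all genes that were lower in all 4 inserts was not computed.

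**Figure D3:**
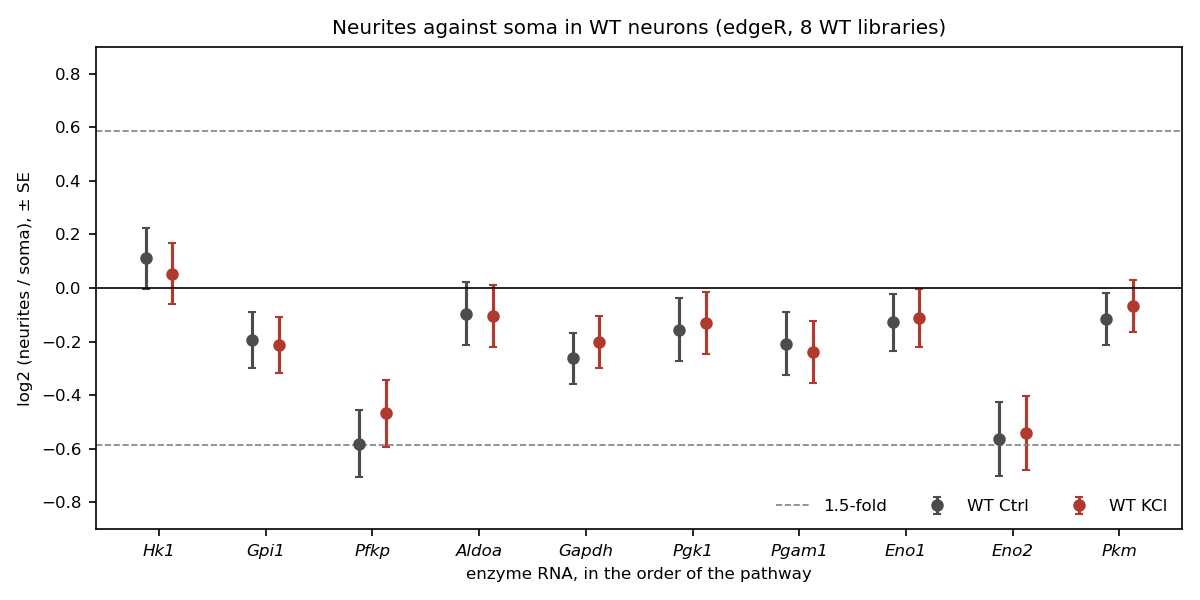
Difference between neurites and soma (y axis, log2, with bars of 1 SE from edgeR on the 8 WT libraries) for the 10 enzyme RNAs in the order of the pathway, in untreated (grey) and KCl-treated (red) WT neurons. Dashed lines mark 1.5-fold. Pfkp and Eno2 reach down to the lower line, and Hk1 alone lies above 0.

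Of 15 other isoforms and steps tested, Aldoc and Eno3 were called higher in neurites and none lower. Aldoc, the aldolase typical of astrocytes, measured 151 and 153 CPM in untreated soma and 398 and 233 CPM in untreated neurites, a difference of 0.98 ± 0.20 (edgeR adjusted p = 0.00787), and of 0.70 ± 0.20 with KCl. Eno3, the muscle enolase, was low throughout (3.07 and 4.05 CPM in untreated soma) and differed by 0.73 ± 0.21 in Ctrl and 0.94 ± 0.22 in KCl. Among 11 transport and lactate genes, the glucose transporter Slc2a1 was called lower in neurites in both treatments (-0.70 ± 0.12 and -0.93 ± 0.11), and the lactate transporter Slc16a1 in KCl (-0.95 ± 0.13). Of 10 regulators none was called in either treatment by edgeR.

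Glial markers also differed between the compartments in untreated WT neurons. Of 11 astrocyte markers 6 were called higher in untreated WT neurites and none lower, and their summed level was 1152 and 1163 CPM in soma and 3098 and 1939 CPM in neurites. Fibroblast and vessel markers were called higher in 6 of 11, with sums of 28.4 and 23.9 CPM in soma and 49.2 and 102 CPM in neurites. Neuron markers were called higher in 4 and lower in 1 of 10, with sums of 4013 and 4158 CPM in soma and 5859 and 6578 CPM in neurites. Oligodendrocyte-lineage markers were called higher in 2 of 7 and microglia markers in 1 of 6. In KCl-treated WT neurites, astrocyte markers were called higher in 4 of 11 and fibroblast and vessel markers in 0 of 11. The counts for neuron, oligodendrocyte-lineage and microglia markers were the same with KCl as in Ctrl. The part of these cells in the compartment differences of the enzymes was not tested, and in such bulk samples fewer cells of a type and less RNA per cell cannot be told apart.

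Depolarization raises the demand for ATP, and the response of the enzyme RNAs to 2 h of KCl was small. In WT soma the log2 differences between KCl and Ctrl ran from -0.00 (Gapdh) to 0.21 (Pgam1), with a median of 0.08 and SE of 0.10 to 0.14. In WT neurites they ran from 0.00 (Hk1) to 0.32 (Pfkp), with a median of 0.09. Values were positive for 9 of 10 enzymes in soma and 10 of 10 in neurites, where 50.8% and 51.0% of all genes were positive. Pfkp in neurites was the only one with an unadjusted p up to 0.05: its 168 and 185 CPM in Ctrl and 191 and 225 CPM in KCl did not overlap and differed by 0.32 ± 0.12 (edgeR adjusted p = 0.162). Pgam1, at 648 and 698 CPM in untreated soma and 858 and 696 CPM in KCl-treated soma, overlapped and differed by 0.21 ± 0.12 (adjusted p = 0.308).

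At the 2-fold minimum, edgeR called 0 of the 10 enzymes in WT soma, where it called 6.81% of all genes, and 0 of 10 in WT neurites, where it called 4.94%. Without the fold minimum the counts were again 0 of 10 (13.6% of all genes in soma and 8.45% in neurites). DESeq2 and limma called none of the 10 in either compartment, and the counts at an unadjusted p up to 0.05 were 0 in soma (26.5% of all genes) and 1 in neurites (22.6%) by edgeR.

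Some transporters of glucose and lactate responded strongly in the same libraries. Slc2a1 measured 46.4 and 46.2 CPM in untreated and 222 and 211 CPM in KCl-treated soma, a rise of 2.22 ± 0.12 (edgeR adjusted p = 1.33e-06). In neurites it went from 33.1 and 26.7 CPM to 106 and 118 CPM, a rise of 1.99 ± 0.12. The neuronal glucose transporter Slc2a3 rose from 345 and 356 CPM to 1153 and 1331 CPM in soma (1.83 ± 0.13) and by 1.80 ± 0.13 in neurites. The lactate transporter Slc16a1 went from 53.9 and 56.8 CPM to 187 and 196 CPM in soma (1.79 ± 0.13) and rose by 1.29 ± 0.13 in neurites. Of the 11 transport and lactate genes 3 were called higher in soma and 4 in neurites, where Slc2a4 joined them with 2 to 33 counts per neurite library (2.39 ± 0.59, adjusted p = 0.0324). The lactate dehydrogenases were not called: Ldha differed by 0.24 ± 0.12 in soma and 0.29 ± 0.12 in neurites.

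Among the 10 regulators, the pyruvate dehydrogenase kinase Pdk4 was called higher in soma (1.60 ± 0.32, 30 and 35 counts in Ctrl and 84 and 88 in KCl). No regulator was called in neurites. Neither the 15 other isoforms nor the 17 citric acid cycle genes held a called gene in either compartment by edgeR. Astrocyte markers were called higher in 1 of 11 in KCl-treated soma and in none in neurites, with sums of 1546 and 1588 CPM in KCl-treated soma. The change of neurite enrichment with KCl, the difference of differences with a term for each insert, was small for every enzyme: it ran from -0.05 (Hk1) to 0.11 (Pfkp), with SE of 0.17 to 0.19. None of the 10 was called by edgeR, DESeq2 or limma at 1.5-fold and an unadjusted p up to 0.05, where edgeR called 3.36% of all genes.

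**Figure D4:**
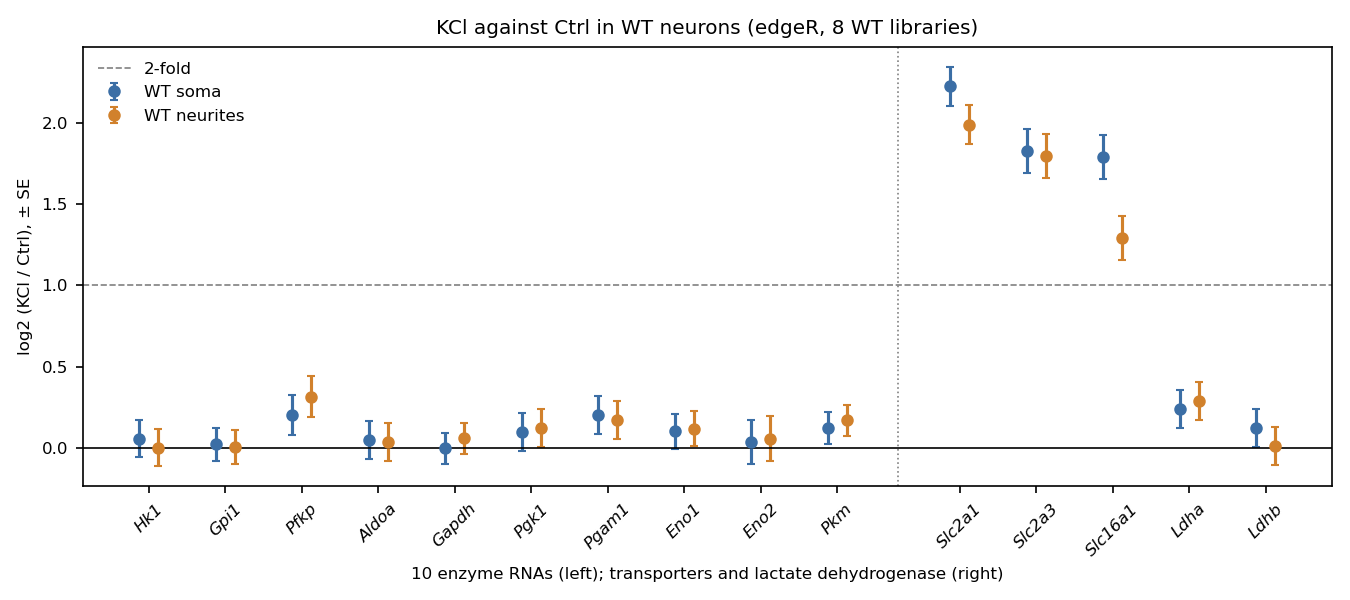
Response to KCl in WT neurons (y axis, log2 of KCl over Ctrl, with bars of 1 SE from edgeR on the 8 WT libraries) of the 10 enzyme RNAs (left of the dotted line) and of transporters and lactate dehydrogenases (right), in soma (blue) and neurites (orange). The dashed line marks 2-fold. The 10 enzymes stay below 0.4, while Slc2a1, Slc2a3 and Slc16a1 lie above the line in both compartments.

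The comparisons of genotypes had larger errors than those within WT. Across genes the SD of the log2 ratio between replicates was 0.552 to 1.46 in the 4 Mettl3 KO groups and 0.198 to 0.405 in the 4 WT groups. In untreated soma the median log2 difference between Mettl3 KO and WT was 0.31 for the 10 enzymes (SE of 0.25 to 0.67) and 0.02 over all genes. It was positive for 8 of 10 enzymes and for 51.4% of all genes. The highest value was that of Pgam1: 805 and 1352 CPM in Mettl3 KO and 648 and 698 CPM in WT, a difference of 0.69 ± 0.39 (edgeR adjusted p = 0.65). Replicate 2 of Mettl3 KO soma was the higher library for 7 of the 10 enzymes. In untreated neurites the median was -0.08 against 0.01, with values from -0.36 (Pfkp) to 0.47 (Gapdh). EdgeR called 0 of 10 in soma (0.189% of all genes called) and 0 of 10 in neurites (0.171%), also 0 at an unadjusted p up to 0.05 (8.95 and 7.29% of all genes). DESeq2 called 0 in both, and limma called 0 in both.

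Gapdh, the common reference gene, had its 8 WT libraries between 387.9 and 469 CPM. In untreated Mettl3 KO it measured 647 and 541 CPM in soma and 559 and 574 CPM in neurites, all above the highest WT library. KCl-treated Mettl3 KO gave 347 and 638 CPM in soma and 307 and 619 CPM in neurites, so that replicate 1 lay below all WT libraries and replicate 2 above them. None of these differences passed the edgeR test (adjusted p of 0.794 in untreated soma and 0.904 in untreated neurites), and Gapdh has near-identical copies, of which 147 had a count of at least 10.

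In untreated Mettl3 KO neurons too, most enzymes had lower values in neurites than in soma. The median of the enzymes was -0.43 (all genes -0.06), Hk1 was again the only positive one (0.17 ± 0.44), and Eno2 was lowest (-0.93 ± 0.67). Of all genes, 46.4% were positive. EdgeR called 0 of 10 and 0% of all genes here, although 3188 genes had a change of 1.5-fold with an unadjusted p up to 0.05, none of them an enzyme. DESeq2 called 0 of 10 (944 genes in all, and 1 enzyme with an unadjusted p up to 0.05), and limma 0 of 10. Without KCl-treated insert 1 in the fit, the median was -0.47, 7 of 10 enzymes had an unadjusted p up to 0.05 (24.7% of all genes), and again 0 of 10 were called. The change of enrichment between genotypes (the difference of differences, with a term for each insert) had a median of -0.33 over the enzymes and -0.03 over all genes. It was negative for 8 of 10 enzymes, while 47.6% of all genes were positive. Eno1, for example, changed by -0.36 ± 0.28 and Pgam1 by -0.49 ± 0.29 (unadjusted p = 0.128). At an unadjusted p up to 0.05 and 1.5-fold edgeR called 0 of 10 (4.29% of all genes, 1001 in number), and DESeq2 and limma also 0. Fitted with no replicate block, without the terms for inserts, the same comparison called 312 genes and again 0 of 10. Without replicate 1 of untreated Mettl3 KO soma, Pgk1, Pgam1 and Eno2 were called lower, at -0.70, -0.79 and -0.95. The same 3 were called without replicate 1 of untreated Mettl3 KO neurites, and either way replicate 2 was the lone Mettl3 KO library of its group.

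With KCl, the enzymes were lower in the 2 libraries of Mettl3 KO insert 1. Against the mean of the WT libraries, all 10 were below 0 there, from -0.21 (Eno1 in neurites) to -2.70 (Eno2 in neurites) in log2 units. Eno2, the neuronal enolase, had 46.0 CPM in the soma and 17.9 CPM in the neurites of this insert, 164 and 93.7 CPM in those of insert 2, and 172 and 171 CPM in WT soma. Neuron markers were low in the same insert and oligodendrocyte-lineage and astrocyte markers high (9620 and 18434 CPM for 11 astrocyte markers, against 1152 to 3098 CPM in WT), and their part in the enzyme values was not tested.

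In the comparison of Mettl3 KO with WT in KCl-treated soma the enzymes had a median of -0.46 (all genes 0.03), with Gapdh alone above 0. Without insert 1 the median was -0.13, with 4 of 10 positive. The lowest p belonged to Pgk1 (-0.56 ± 0.25, unadjusted p = 0.0497, adjusted p = 0.341). EdgeR called 0 of 10 (0.227% of all genes, 53 in number), with 1 at an unadjusted p up to 0.05 (14.6% of all genes), and with a replicate block it called 607 genes and again 0 of 10. In neurites the median was -0.09, and 0.18 without insert 1. Eno2 differed by -1.04 ± 0.67 with both inserts (adjusted p = 0.367) and by -0.32 without insert 1. EdgeR called 0 of 10 here (0.433% of all genes, 101 in number), and 0 at an unadjusted p up to 0.05 (23.6%). The replicate block is a term for the replicate number within each genotype, shared by compartments and treatments. With it, edgeR called Eno2 lower (-2.06, adjusted p = 0.0378) among 2113 genes, with insert 1 included. Without Mettl3 KO neurite KCl replicate 2, Hk1 (-1.46) and Eno2 (-2.67) were called. Of the other isoforms Hk2 was called lower in these neurites (-1.55 ± 0.28, adjusted p = 0.0376), with 5.94 and 8.71 CPM in Mettl3 KO and 24.7 and 18.9 CPM in WT, and no other gene of the pathway lists was called in the 4 comparisons of Mettl3 KO with WT. Without insert 1, Hk2 differed by -1.33 ± 0.28, adjusted p = 0.0882 in these neurites and was not called, whereas in the untreated comparisons of the same fit it was called lower in soma (-1.42 ± 0.22, adjusted p = 0.0169) and neurites (-1.21 ± 0.22, adjusted p = 0.0351).

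The response of Mettl3 KO neurons to KCl included the same insert. In soma all 10 enzymes were negative, with a median of -0.53 (all genes 0.11), and without insert 1 the median was -0.24 with 3 of 10 positive. In neurites the median was -0.08, and 0.21 without insert 1. EdgeR called 0 of 10 in soma (1.17% of all genes, 273 in number, and 418 with a replicate block, again with 0 of 10) and 0 of 10 in neurites (0.964%), none at an unadjusted p up to 0.05 (16.5 and 17.7% of all genes). Without Mettl3 KO neurite KCl replicate 2, Eno2 was called lower in neurites, at -2.45. The transporters Slc2a1 (1.55 ± 0.27, adjusted p = 0.0186) and Slc16a1 (1.64 ± 0.27, adjusted p = 0.0135) were called higher in Mettl3 KO neurites. Without insert 1 both were still called, at 1.27 ± 0.26, adjusted p = 0.0418 and 1.26 ± 0.25, adjusted p = 0.0378. Between neurites and soma of KCl-treated Mettl3 KO neurons the enzymes had a median of 0.02, and of 0.08 without insert 1, and edgeR called 0 of 10 and 0% of all genes (509 genes at an unadjusted p up to 0.05 and a 1.5-fold change, no enzyme among them). DESeq2 and limma called 0 of 10 in all of these KCl comparisons.

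**Figure D5:**
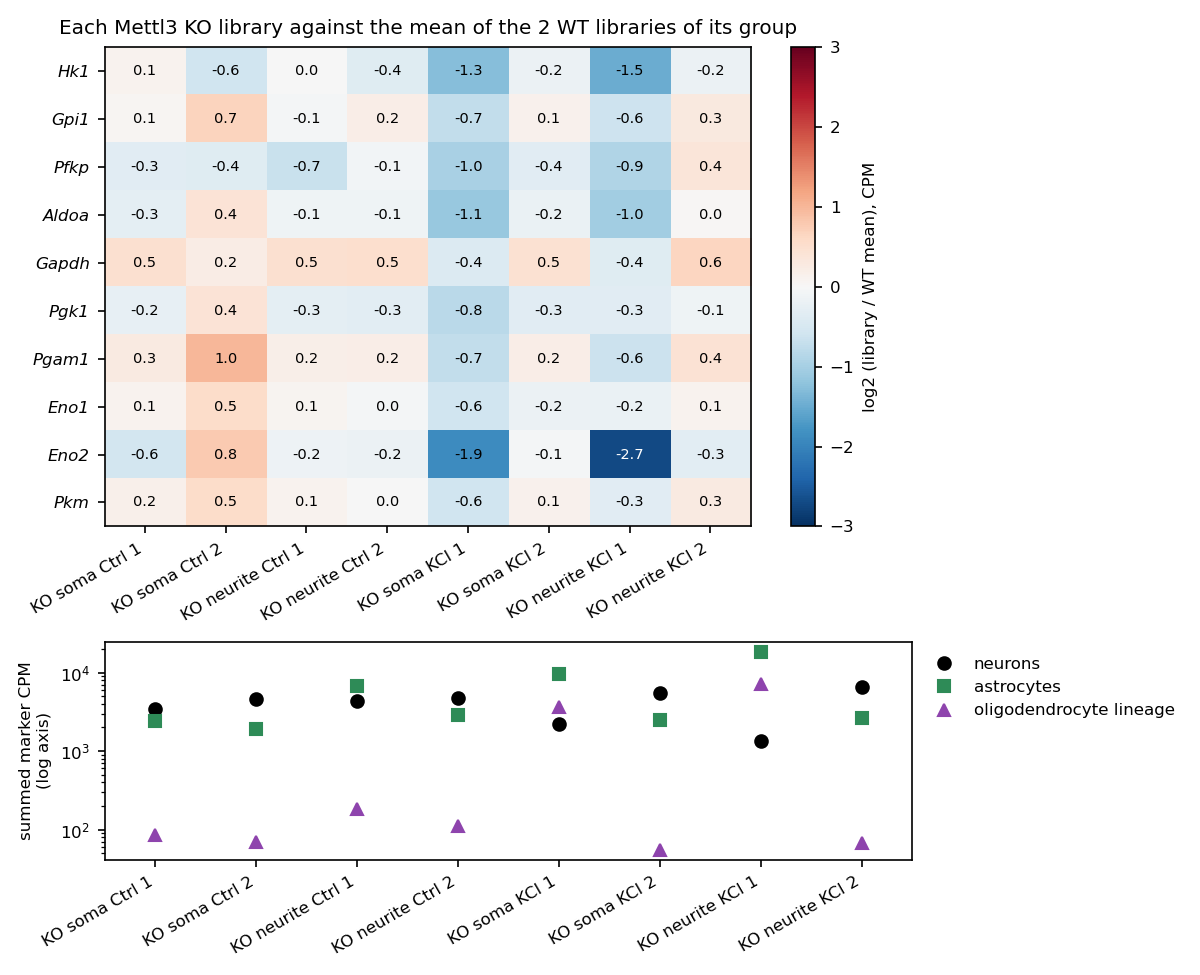
Upper panel: log2 of the level of each enzyme RNA (rows) in each Mettl3 KO library (columns) over the mean of the 2 WT libraries of the same compartment and treatment, red for higher and blue for lower. Lower panel: summed CPM (log axis) of neuron, astrocyte and oligodendrocyte-lineage markers in the same libraries. Both libraries of KCl-treated insert 1 are blue in all 10 rows, with Eno2 lowest, and are the ones with high oligodendrocyte-lineage and low neuron markers.

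Each enzyme's level was compared with the others over the 16 libraries. The correlation of each enzyme's log2 CPM with the mean of the other 9 ran from 0.612 (Gapdh) to 0.942 (Aldoa), with Gpi1 at 0.928 and Eno2 at 0.908. Their summed level was 6992 to 10342 CPM in 14 libraries and 4585 and 4743 CPM in the pair from the divergent insert. Of 15067 other genes averaging 100 counts or more, those with the most similar pattern were Blcap (r = 0.993), Tmem38a (0.989), Snap47 (0.982), Ckmt1 (0.978) and Cacnb4 (0.976). Tmem38a encodes an intracellular cation channel, Snap47 a SNARE protein, Ckmt1 a mitochondrial creatine kinase and Cacnb4 a calcium channel subunit. These are descriptions over 16 libraries that share litters, inserts and the 2 divergent libraries.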

How the data were processed

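RNA-seq of 16 libraries and DART-seq of 16 libraries were analysed from the deposited files. Per the submitters' notes and methods, the authors aligned paired 50-base reads to mm10 with STAR 2.7.7a and made a count per gene with featureCounts 2.0.1 on Ensembl 97, without strand. They counted reads that map to several places at each of them. The authors' neurite enrichment tables hold a mean signal scaled by size factors, which was read for gene names only, and their fold change, SE, Wald statistic and p columns were not used. In the deposited DART-seq files each site has a C-to-U fraction averaged over libraries by the authors, and each RNA a score over its sites. Sites needed at least 50 reads, more editing in WT than in Mettl3 KO, and A or G, then A, before the edited C. The header does not name the genotype of the soma and neurite scores. For the 10 enzymes the mean of these 2 scores was 0.977 to 1.11 times the WT score. Per the paper's supplement, the soma and neurite averages of a site include both Ctrl and KCl samples.

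Counts were tested with edgeR 4.0.16 (R 4.3.3, quasi-likelihood F test, two-sided, TMM scaling, mean count of at least 10) on the 8 WT libraries for WT comparisons, and on all 16 where Mettl3 KO was involved. Changes of enrichment had a term for each insert. The other main fits used group alone, so their SE and p leave out the pairing by insert and litter. Calls needed 1.5-fold (2-fold for KCl) with p adjusted over all genes by Benjamini-Hochberg up to 0.05, or, for changes of enrichment, an unadjusted p of at most 0.05 and 1.5-fold. The 37 mitochondrial genes had no counts. Alternatives used DESeq2 1.42.0, limma 3.58.1 (voom with sample weights), other scaling, filters and libraries, each library left out, and a replicate block. Soma and neurites of the same replicate number were taken to come from 1 insert, which the labels do not state. Correlations of deviations between them were -0.133 and 0.0331 in WT (Ctrl and KCl), and 0.0750 and 0.897 in Mettl3 KO. Only KCl-treated Mettl3 KO, which holds the divergent insert, showed a clear correlation. Copies were sought with BLAST+ 2.17.0, site positions and exons taken from GENCODE M21, and 55394 of 55573 gene identifiers matched it. Scripts used Python 3.11.15, pandas 2.3.3, numpy 2.4.6 and matplotlib 3.10.9. Tests were tried on simulated data first.

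Members and gene lists were chosen with earlier results of these data known. Named were the 10 enzymes, up to 4 called genes of each pathway list with the smallest p, Mettl3, 5 check genes (Camk2a, Shank1, Snhg11, Fos, Npas4) and the 5 genes most correlated with the enzymes' mean. Ldha was named after its values were seen. Dividing by the principal transcript's length and counting a repeated site once were added after seeing the data. The shares of hexokinase isoforms and the compartment differences of citric acid cycle genes in WT are not reported here.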

Additional observations from a re-analysis of the deposited data

Results flagged for a closer look

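Genes outside the 10 enzymes drew attention where a contrast differed between groups by a test of the difference itself, at an unadjusted p of at most 0.05 and 1.5-fold in edgeR. None of them passed adjustment over all genes. In WT neurons 3.36% of all genes met this rule for KCl (779 of 23200), among them 3 of the pathway and check genes: the glucose transporter Slc2a4 by 3.04 ± 0.85 (SE, unadjusted p = 0.00599, adjusted p = 0.999), from 2 to 33 counts per library, and the activity genes Fos by -1.17 ± 0.20 (SE, unadjusted p = 0.000241, adjusted p = 0.939) and Npas4 by -0.81 ± 0.24 (SE, unadjusted p = 0.00861, adjusted p = 0.999). Fos and Npas4 rose in both compartments, by 7.94 in soma and 7.06 in neurites for Npas4, on the log2 scale.

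In untreated neurons 4.29% of all genes met the rule for genotype (1001 of 23335), among them 4 of the pathway and citric acid cycle genes, all with higher values in Mettl3 KO: the muscle mutase Pgam2 by 1.17 ± 0.35 (SE, unadjusted p = 0.00912, adjusted p = 0.929), the pyruvate carrier subunits Mpc1 by 0.99 ± 0.43 (SE, unadjusted p = 0.0476, adjusted p = 0.929) and Mpc2 by 1.31 ± 0.56 (SE, unadjusted p = 0.0459, adjusted p = 0.929), and the succinate dehydrogenase subunit Sdhc by 0.78 ± 0.29 (SE, unadjusted p = 0.027, adjusted p = 0.929). They were named after their values were seen. In Mettl3 KO soma the 2 libraries differed for both carrier subunits, with 202 and 75.1 CPM for Mpc1 and 106 and 23.7 CPM for Mpc2 in replicates 1 and 2.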

How the results depend on the processing

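Of 191 alternative counts of called enzymes, 182 equalled the main count of 0, and 9 of the 14 comparisons stayed at 0 under each alternative run. In untreated WT neurites against soma, a mean count of at least 100 gave 2 (Pfkp and Eno2), no fold minimum gave 2, and leaving out 1 library gave 0 to 2. In KCl-treated WT, no fold minimum gave 2. Leaving out 1 library gave 0 to 3 for the Mettl3 KO change in neurite enrichment, 0 to 1 for KCl in Mettl3 KO neurites and 0 to 2 for Mettl3 KO against WT in KCl-treated neurites. In these counts the library left out leaves a lone one, assumed to vary like the other groups. In that last comparison the replicate block gave 1 (Eno2), and it changed no other call of an enzyme. The cause was not tested. At an identity of 95% the copies numbered 87 instead of 210, as the stricter limit must lower them.

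Of 1910 single-gene values, 1686 kept their direction and side, 18 became calls and 206 uncalled ones changed sign. Calls over all genes moved more. Untreated WT neurites against soma gave 3133 calls, 1076 to 3642 with 1 library left out and 0 when all 16 libraries were fitted, and KCl-treated WT gave 2213, 731 to 2379 and 0. Mettl3 KO against WT gave 44 calls in untreated soma (4 to 2650 with 1 library left out), 40 in untreated neurites (5 to 13), 53 in KCl-treated soma (8 to 168) and 101 in KCl-treated neurites (10 to 7169). DESeq2 gave 413, 306, 1029 and 2590 there.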
